A study of Mus musculus with 16 samples.

Results

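The 10 genes described here encode subunits, inhibitors and induced regulators of NF-kB: Nfkbia, Nfkbiz, Bcl3, Nfkb2, Relb, Tnfaip3, Tnip1, Traf1, Birc3 and Tnfaip2. They were chosen by symbol, with earlier results of these data known. Each was represented by 1 probe set that names 1 gene, so that all 10 were among the 19938 genes tested. Expression was measured on 16 whole-transcript arrays of colonic epithelial cells from C57BL/6 mice aged 70 days, with RNA of 3 mice pooled on each array. Passive SIgA is secretory IgA taken up in early life with the mother's milk, present where the dam was Pigr+/- and absent where she was Pigr-/-. Active SIgA is secretory IgA carried into the gut by the offspring's own polymeric immunoglobulin receptor, present in Pigr+/- and absent in Pigr-/- offspring. Offspring with passive and active SIgA (Pigr+/- dam, Pigr+/- offspring), passive SIgA only (Pigr+/- dam, Pigr-/- offspring), active SIgA only (Pigr-/- dam, Pigr+/- offspring) or neither (Pigr-/- dam, Pigr-/- offspring) received plain water or water with 2% dextran sulfate sodium (DSS), which injures the colonic epithelium, over 8 days. Each of these 8 groups had 2 arrays. The mice were gender-matched, and the best supplied group was heterozygous for Pigr, so that no mouse with 2 intact Pigr copies was compared.

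NF-kB is a family of dimeric transcription factors that inhibitor proteins of the IkB type hold inactive in the cytoplasm until a signal from a tumour necrosis factor, interleukin 1 or Toll-like receptor has the inhibitor degraded. Active NF-kB switches on genes of inflammation and survival, and with them its own inhibitors, which end the response. A slower branch acts through the p52 and RelB subunits. In the gut epithelium the pathway is known both for protecting the barrier and for driving inflammation when it is too active.

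The promoters are shown first because several of these genes are themselves under NF-kB control in textbook descriptions. RefSeq promoter windows (assembly GRCm38.p6) reach from 250 bases before to 50 bases after a transcript's start, and 8 of the 10 members had at least 1, with 11 windows in all. The kB consensus of NF-kB binding, searched on both strands, was found in 8 of these 11 windows, belonging to 6 members, against 8.459% of all 32851 windows. All 3 windows of Nfkb2 are among the 8. Its windows 2 and 3 overlap and hold a match at the same place (chr19:46305705-46305714), so that this site is counted in 2 windows. A stricter form with a run of T, each match of which in these windows was also a match of the consensus, was found in windows of 3 members (Nfkbia, Tnfaip3 and Nfkb2) and in 1.629% of all windows. TGANTCA, the AP-1 motif, was searched as a comparison and occurred in windows of 2 members (Tnfaip3 and Nfkb2) and in 7.808% of all. Traf1 and Birc3 had none of the 3 motifs in these windows. Each line below gives the last 150 bases before the start on the gene's strand, 5′ to 3′, with the kB matches in capitals. For Bcl3, whose match begins at base 3 of the transcript, only 30 bases around it are given. For Nfkb2 the first of 3 windows and for Tnfaip3 the first of 2 is shown.
Nfkbia (chr12:55492648-55492797, minus strand): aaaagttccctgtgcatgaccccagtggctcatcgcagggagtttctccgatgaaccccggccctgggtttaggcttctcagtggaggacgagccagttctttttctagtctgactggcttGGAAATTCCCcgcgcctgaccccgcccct
Tnfaip3 (chr10:19015411-19015560, minus strand): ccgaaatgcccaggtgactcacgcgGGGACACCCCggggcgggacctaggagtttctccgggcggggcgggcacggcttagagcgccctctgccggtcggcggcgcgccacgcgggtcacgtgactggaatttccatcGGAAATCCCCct
Nfkb2 (chr19:46304587-46304736, plus strand): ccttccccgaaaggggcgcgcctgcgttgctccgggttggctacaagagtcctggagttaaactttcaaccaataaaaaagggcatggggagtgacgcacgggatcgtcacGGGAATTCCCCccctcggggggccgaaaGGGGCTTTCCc
Tnip1 (chr11:54962941-54963090, minus strand): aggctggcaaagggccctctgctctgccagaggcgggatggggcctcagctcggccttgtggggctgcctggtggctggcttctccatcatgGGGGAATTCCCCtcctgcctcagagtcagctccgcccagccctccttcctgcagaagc
Tnfaip2 (chr12:111442511-111442660, plus strand): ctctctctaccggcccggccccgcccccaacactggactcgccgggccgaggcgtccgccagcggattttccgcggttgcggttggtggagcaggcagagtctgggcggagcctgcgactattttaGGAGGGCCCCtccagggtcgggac
Bcl3 (chr7:19822734-19822763, minus strand): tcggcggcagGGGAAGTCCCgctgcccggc
In Tnip1 and in Nfkb2 overlapping matches merge into 1 run of capitals, 58 and 39 bases before the start. A match is a description of the letters and says nothing of binding in these cells.

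One group differed from the others in its dim probe sets. As a mark of dim probe sets, 1288 odorant, taste and pheromone receptor or hair keratin-associated genes were taken by symbol. Their mean log2 level was 5.25 and 5.41 in untreated mice with both SIgA sources and 4.45 to 4.87 on the other 14 arrays. The DSS effect is therefore also given without this group, and without it and untreated replicate 1 of active SIgA only, which was the highest of the other 14. Of the members, Tnfaip3 alone had both arrays of that group outside the range of the other 6 untreated arrays (11.16 and 11.20 against 10.77 to 11.14). Pigr, the deleted gene, lay between 12.18 and 12.46 (log2) in Pigr+/- offspring and between 11.34 and 11.70 in Pigr-/- offspring, so that every array was on the side of its label. The 13 epithelial markers (Epcam, keratins, Vil1, Cdx2 and others) had mean levels of 12.26 to 12.37 on untreated and 12.24 to 12.36 on DSS arrays, and 1 of them, Krt18, fell (-0.20 ± 0.06 log2, limma adjusted p = 0.0444).

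DSS against no treatment, averaged over the 4 SIgA groups (8 arrays against 8), asked how NF-kB feedback genes respond to injury of the colon. Tnfaip2, Nfkbiz and Bcl3 rose, Traf1 and Tnip1 fell, and Nfkbia, Tnfaip3, Nfkb2, Relb and Birc3 did not pass the test. The rise of Tnfaip2 was 1.19 ± 0.12 log2 (± SE throughout for differences), a factor of 2.28, and no other member changed by more than a factor of 1.28. Thus 5 of the 10 members were called, at an adjusted p under 0.05 by limma over all 19938 genes, where 13.1% of all genes were. In single directions, 3 of 10 rose (6.4% of all genes did) and 2 of 10 fell (6.73% of all did). The second fall, that of Tnip1, was lost when any of 14 of the 16 arrays was left out. The median difference was 0.07 for the members and 0.00 for all genes. Without the untreated passive and active group 3 members rose and 1 fell, where 2.88% of all genes rose and 3.19% fell. With the further array also left out, 1 rose (Tnfaip2) and 1 fell (Traf1), where 2.5% and 3.05% of all did.

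**Figure D1:**
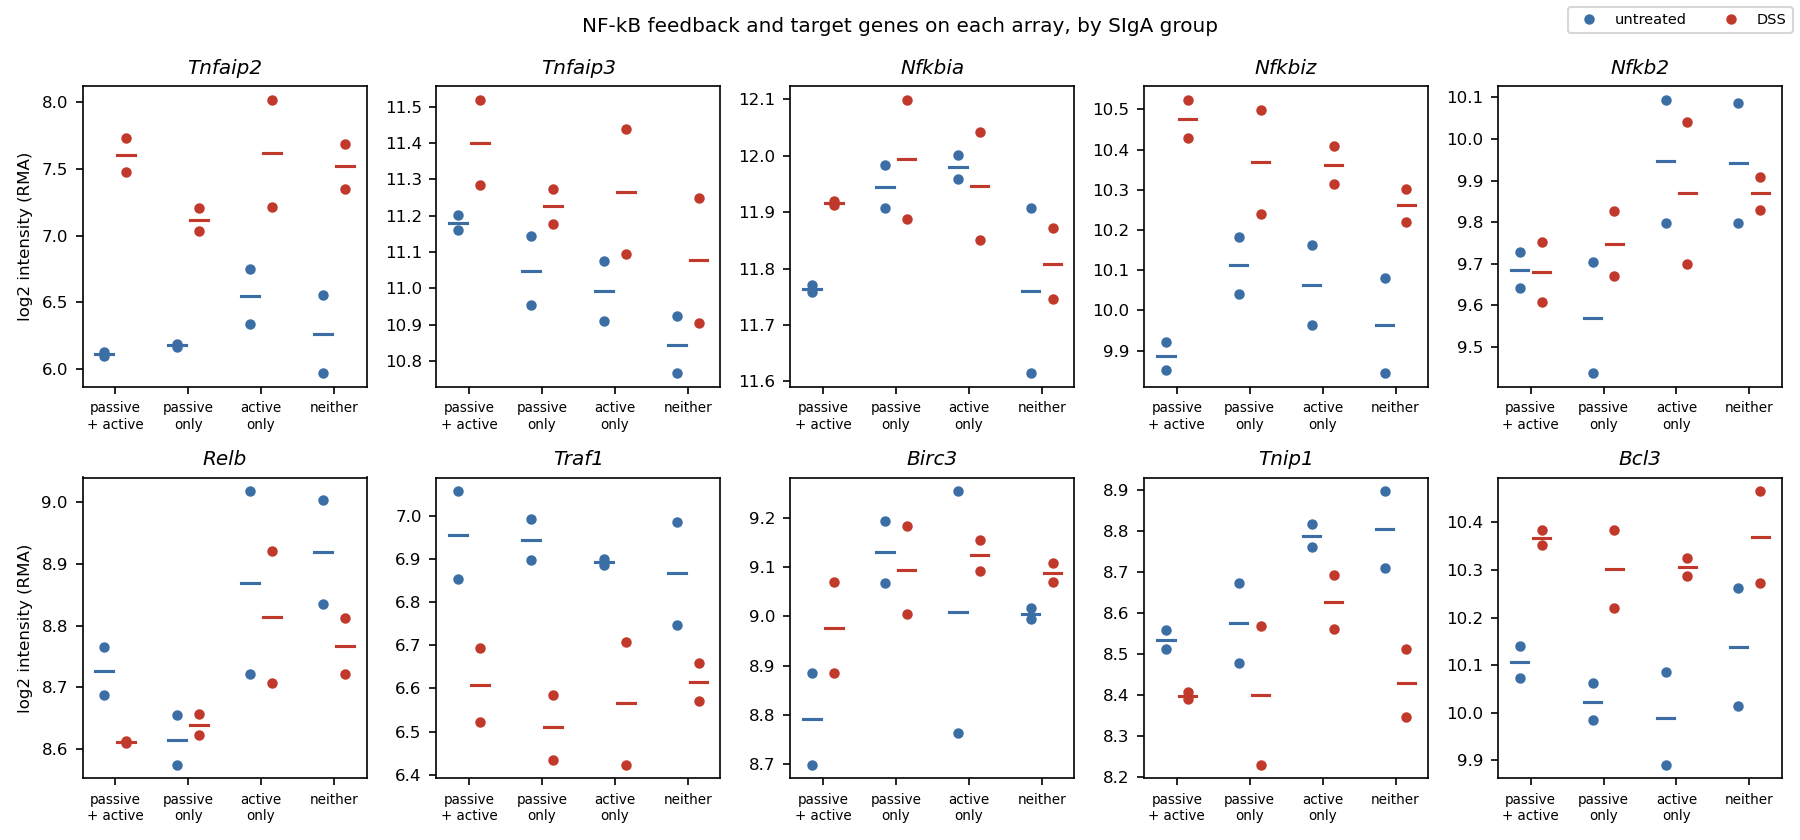
Log2 intensity of each member on the 16 arrays, by SIgA group, untreated in blue and after DSS in red, with a bar at the mean of the 2 arrays; each panel has its own axis, which does not start at 0. Tnfaip2, Nfkbiz and Traf1 have no overlap between the 8 untreated and the 8 DSS arrays, and the untreated arrays of Nfkb2 and Tnip1 lie higher in both groups without passive SIgA than in both groups with it.

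Tnfaip2, named for its induction by tumour necrosis factor and known to promote thin membrane extensions between cells, separated the treatments completely. On untreated arrays its log2 level was 6.13 and 6.10 with passive and active SIgA, 6.19 and 6.17 with passive only, 6.75 and 6.34 with active only, and 6.56 and 5.97 with neither. The DSS arrays had, in this order, 7.73 and 7.48, 7.21 and 7.03, 8.02 and 7.21, and 7.35 and 7.68. The lowest DSS array was thus above the highest untreated array, and the 4 DSS groups held the 4 highest means. By limma the adjusted p was 3.41e-05. Without the untreated passive and active group the rise was 1.09 ± 0.15 (adjusted p = 0.000836). Of the 7 pairs of neighbours in the order of group means 4 overlapped in their arrays, so that within a treatment the order of the SIgA groups is mostly not beyond the spread.

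Of the 3 members of the IkB family, Nfkbiz and Bcl3 rose and Nfkbia did not pass the test. Nfkbiz encodes IkB zeta, a nuclear cofactor through which NF-kB induces a second set of inflammatory and antimicrobial genes. Untreated arrays had 9.92 and 9.85 with passive and active SIgA, 10.18 and 10.04 with passive only, 9.96 and 10.16 with active only, and 10.08 and 9.84 with neither. DSS arrays had 10.43 and 10.52, 10.50 and 10.24, 10.32 and 10.41, and 10.30 and 10.22. All 8 DSS arrays lay above all 8 untreated ones, by a small margin. The rise was 0.36 ± 0.06 (limma, adjusted p = 0.00208), 0.28 ± 0.08 without the untreated passive and active group (adjusted p = 0.0481), and 0.25 with the further array left out, where it no longer passed (adjusted p = 0.0994).

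Bcl3 encodes another nuclear IkB protein, which binds p50 and p52 dimers at DNA. Its untreated levels were 10.07 and 10.14 with passive and active SIgA, 10.06 and 9.98 with passive only, 9.89 and 10.09 with active only, and 10.26 and 10.01 with neither. After DSS they were 10.38 and 10.35, 10.38 and 10.22, 10.33 and 10.29, and 10.47 and 10.27. A single untreated array, at 10.26, reached into the DSS range. Bcl3 rose by 0.27 ± 0.06 (limma, adjusted p = 0.00956), with 0.28 ± 0.07 without the untreated passive and active group (adjusted p = 0.0455) and 0.24 with the further array left out (adjusted p = 0.0941). Nfkbia encodes IkB alpha, the main cytoplasmic inhibitor and a textbook gene of rapid negative feedback. Its levels ran from 11.61 to 12 with a median of 11.91 untreated, and from 11.75 to 12.10 with a median of 11.90 after DSS, so that the treatments overlapped almost wholly. The difference was 0.05 ± 0.06 (adjusted p = 0.667).

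The subunits of the slower branch did not pass either. Nfkb2, the precursor of p52, had untreated levels of 9.44 to 10.09 (median 9.76) and DSS levels of 9.61 to 10.04 (median 9.79), a difference of 0.01 ± 0.08 (adjusted p = 0.977) whose sign turned under other scalings of the arrays. Relb, its dimer partner, ran from 8.57 to 9.02 untreated (median 8.74) and from 8.61 to 8.92 after DSS (median 8.68), a difference of -0.08 ± 0.06 (adjusted p = 0.507). For both genes the spread among untreated arrays was wider than the difference between the treatments.

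Of the A20 complex, Tnip1 fell and Tnfaip3 did not pass the test. Tnfaip3 encodes A20, which edits ubiquitin chains to shut off signalling below the receptors. Its untreated levels were 11.16 and 11.20 with passive and active SIgA, 11.14 and 10.95 with passive only, 10.91 and 11.08 with active only, and 10.92 and 10.77 with neither. DSS arrays had 11.28 and 11.52, 11.27 and 11.18, 11.09 and 11.44, and 11.25 and 10.91. The difference was positive in each of the 4 SIgA groups and missed the threshold, at 0.23 ± 0.08 (adjusted p = 0.0687). It passed with a trend in limma's prior variance (adjusted p = 0.0386) and when any 1 of 3 DSS arrays was left out. These were replicate 1 of passive and active SIgA, replicate 1 of active SIgA only and replicate 2 of neither. Each was the lower DSS array of its group. Under the other 21 of the 25 alternatives Tnfaip3 did not pass, and over all 25 the difference ran from 0.18 to 0.27.

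Tnip1 encodes ABIN-1, an A20 partner that binds ubiquitin chains. Its untreated levels were 8.51 and 8.56 with passive and active SIgA, 8.48 and 8.67 with passive only, 8.76 and 8.82 with active only, and 8.90 and 8.71 with neither. After DSS they were 8.39 and 8.41, 8.57 and 8.23, 8.56 and 8.69, and 8.51 and 8.35. Untreated and DSS arrays overlapped. Tnip1 fell by 0.21 ± 0.07 (limma, adjusted p = 0.0482), just past the threshold, and lost the call when any of 14 of the 16 arrays was left out (-0.25 to -0.17 over all 16 such fits, adjusted p from 0.0222 to 0.12) and without the untreated passive and active group (-0.24 ± 0.08, adjusted p = 0.113). It kept the call only without replicate 2 of untreated neither or replicate 1 of passive SIgA only after DSS. Tnip3, which encodes the related ABIN-3 and is no member, rose by 1.12 ± 0.16 (adjusted p = 0.000434); the difference between the 2 genes was not tested.

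Of the proteins that dock at the receptors, Traf1 fell and Birc3 did not pass. Traf1, an adaptor at tumour necrosis factor receptors that lacks the ubiquitin ligase domain of its relatives, had untreated levels of 6.85 and 7.06 with passive and active SIgA, 6.90 and 6.99 with passive only, 6.89 and 6.90 with active only, and 6.75 and 6.99 with neither. DSS arrays had 6.69 and 6.52, 6.59 and 6.43, 6.71 and 6.42, and 6.57 and 6.66. All 8 DSS arrays lay below all 8 untreated ones. Traf1 fell by 0.34 ± 0.07 (limma, adjusted p = 0.00413), and by a like amount without the untreated passive and active group (-0.34 ± 0.08, adjusted p = 0.0209), in which the dim receptor and keratin-associated genes were high. Those 1288 genes had a median DSS difference of -0.19, and of -0.02 without that group. Birc3, the ubiquitin ligase cIAP2 that acts with these adaptors and inhibits cell death, ran from 8.70 to 9.25 untreated (median 9.01) and from 8.88 to 9.18 after DSS (median 9.08), a difference of 0.09 ± 0.07 (adjusted p = 0.529).

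**Figure D2:**
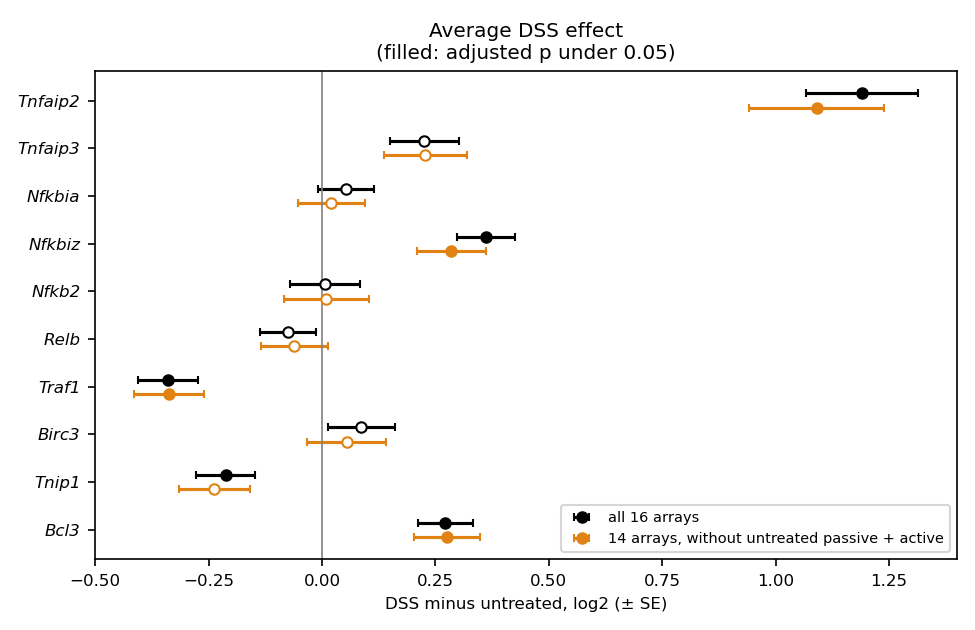
Average DSS effect on each member in log2 units, with bars of 1 standard error, from all 16 arrays (black) and from the 14 arrays without the untreated passive and active SIgA group (orange); filled points passed an adjusted p under 0.05. Tnfaip2 lies at 1.19 and 1.09, the other 9 members lie between -0.34 and 0.36, and Tnip1 is filled in black only.

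No overlap between the 8 untreated and the 8 DSS arrays was seen for 3 of the 10 members (Tnfaip2 and Nfkbiz higher, Traf1 lower), where 2.89% of all genes showed it (1.58% higher, 1.3% lower). Within every SIgA group the 2 DSS arrays of Tnfaip2, Nfkbiz and Bcl3 lay above, and those of Traf1 below, the 2 untreated arrays. With 2 arrays against 2, a separation within a single group was common. The share of all genes that separated alike in all 4 groups was not counted. With passive and active SIgA 5 members were wholly higher and 3 wholly lower, against 28.4% and 21.9% of all genes. With passive SIgA only it was 4 and 1 (24.3% and 18.7% of all), with active SIgA only 4 and 2 (15.2% and 23.1%), and with neither 4 and 3 (19.3% and 21.5%).

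Markers of myeloid cells rose in the same arrays. Of 14 neutrophil markers measured 10 rose and none fell, and their mean level was 5.88 to 6.31 on untreated and 6.63 to 7.14 on DSS arrays. Of 16 monocyte and macrophage markers 9 rose, with means of 5.69 to 6.08 and 6.17 to 6.41. Neutrophil markers that rose included Cxcr2 (1.32 ± 0.12) and Csf3r (0.70 ± 0.10), while Elane (-0.00 ± 0.06), Mmp8, Ngp and Mpo did not pass. Monocyte and macrophage markers that rose included Itgam (0.59 ± 0.06) and Csf1r (0.44 ± 0.07). In that list C1qa (0.01 ± 0.08), C1qb, C1qc, Adgre1, Fcgr1, Ccr2 and Cd163 did not pass. Of 9 fibroblast markers 2 rose, of 8 dendritic cell markers 1 rose (Ccr7), of 10 B cell markers 1 fell (Igha), and none of 9 T cell or 7 endothelial markers passed. Their part in the members' changes was not tested, and in such bulk RNA a change in the number of cells of a type and in the RNA per cell cannot be told apart.

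The profile over the 8 group means was compared with those of 17043 other named genes, by the root-mean-square difference after each was centred on its mean. Closest to Tnfaip2 were Hcar2, a receptor for butyrate and niacin (difference 0.09 log2), and Steap4, a metalloreductase (0.12). Nfkbiz was closest to Lsp1, a leukocyte actin-binding protein (0.03), and Galnt3, which starts mucin-type glycosylation (0.05). Bcl3 was closest to Atf6, a sensor of unfolded proteins (0.04), and Myd88, the adaptor of Toll-like and interleukin 1 receptors (0.05). For Traf1 the closest were Npc2, a lysosomal cholesterol carrier, and Lrp4, a lipoprotein receptor relative (0.04 each). For Tnip1 they were Luzp1 and Abhd5, the latter a co-activator of fat breakdown (0.04 each). These are descriptions of likeness over 8 points. Luzp1 itself was not called in the average DSS comparison (-0.18 ± 0.07, adjusted p = 0.104).

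The other genes of the pathway were counted from 5 lists, which share no gene with the 10 members. The counts are read against the 6.4% of all genes that rose and the 6.73% that fell, or, without the untreated passive and active group, 2.88% and 3.19%. The lists were drawn up with earlier results of these data known, so these shares are no unbiased yardstick for them. Differences between the lists were not tested. Of 7 other subunits and IkB proteins 2 rose and none fell (median 0.09): Nfkbib, the inhibitor IkB beta, at 0.24 ± 0.07 (adjusted p = 0.037), and Nfkbie, IkB epsilon, at 0.27 ± 0.08 (adjusted p = 0.0374). Neither passed without the untreated passive and active group (0.22 and 0.19). The subunit c-Rel (Rel, 0.14 ± 0.09) and the kinase Ikbke (0.09 ± 0.06) did not pass, nor did the nuclear IkB gene Nfkbid (0.03 ± 0.07), added after its value was seen.

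Of 30 receptors, adaptors and kinases upstream of NF-kB, 5 rose and none fell (median 0.12), and 4 rose without that group. The second tumour necrosis factor receptor, Tnfrsf1b, stood at 8.35 to 8.64 untreated and 9.26 to 9.79 after DSS, a rise of 0.97 ± 0.07. The lipopolysaccharide co-receptor Cd14 rose by 0.99 ± 0.08, the receptor Tlr2 by 0.46 ± 0.07 and Myd88 by 0.31 ± 0.06. Of 14 ligands 7 rose and none fell (median 0.26), and 5 rose without that group. Tumour necrosis factor itself (Tnf) stood at 8.28 to 9.12 untreated and 9.28 to 9.92 after DSS, a rise of 1.02 ± 0.11, and larger rises were those of Il1f9 (interleukin 36 gamma, 2.74 ± 0.17), Il1b (2.35 ± 0.16) and Il1a (2.27 ± 0.14).

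Of 19 other negative regulators 6 rose and none fell (median 0.11), and 4 rose without the untreated passive and active group. Socs3, which blocks cytokine receptor signalling, stood at 7.87 to 8.25 untreated and 8.95 to 9.36 after DSS, a rise of 1.13 ± 0.07. Tnip3 stood at 9.42 to 10.63 untreated and at 10.85 to 11.48 after DSS. The RNA-binding N4bp1 rose by 0.43 ± 0.06 and Zc3h12a (Regnase-1), which degrades cytokine messages, by 0.39 ± 0.07. Of 35 other target genes 17 rose and 2 fell (median 0.27), and 15 rose and 2 fell without that group. Nos2 rose by 2.28 ± 0.08, Cxcl2 by 2.48 ± 0.10, Ccl3 by 3.12 ± 0.14 and Clec4e by 2.59 ± 0.16. The 2 that fell were Cd83 (-0.39 ± 0.06), a surface protein of activated immune cells, and the AP-1 subunit Junb (-0.18 ± 0.05), chosen for mention after their values were seen.

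**Figure D3:**
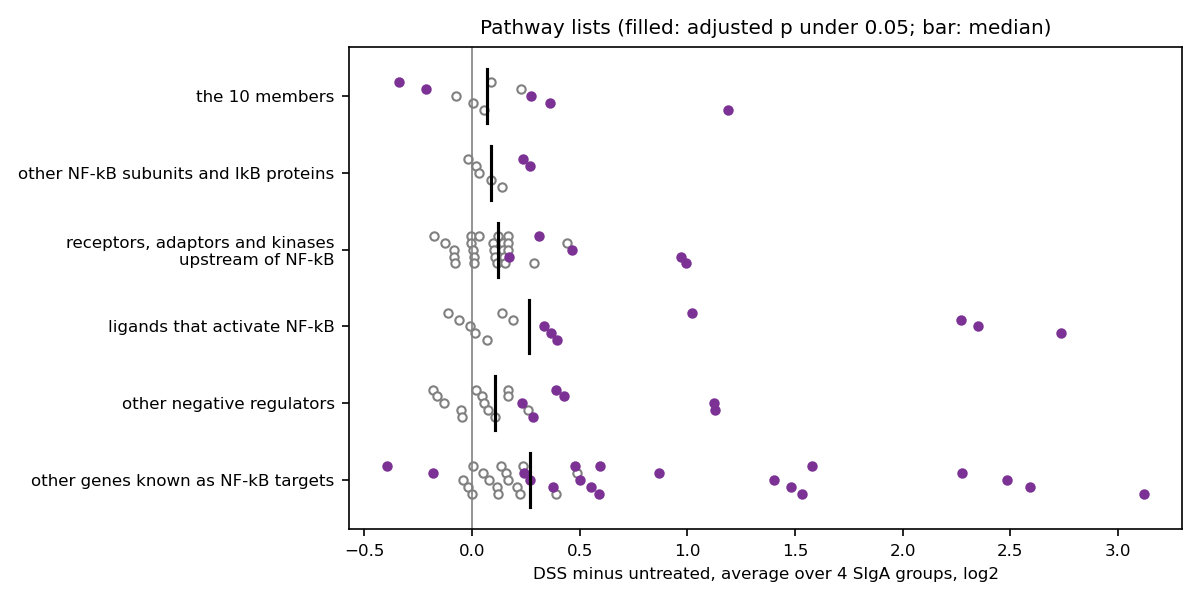
Average DSS effect in log2 units of each gene of the 10 members and of 5 pathway lists; filled points passed an adjusted p under 0.05, and the bar marks the list's median. The 3 members that rose lie at 0.27, 0.36 and 1.19, and the ligand and target lists reach 2.74 and 3.12.

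Taken within single SIgA groups (2 arrays against 2, with the spread of all 16 arrays), few members passed. These 4 comparisons use parts of the same arrays as the average. With passive and active SIgA 2 of 10 were called, where 10.1% of all genes were (3.56% higher): Tnfaip2 rose by 1.49 ± 0.25 (limma, adjusted p = 0.00177) and Nfkbiz by 0.59 ± 0.13 (adjusted p = 0.00971). Nfkbiz lost its call there when only these arrays were fitted (adjusted p = 0.0786), or without untreated replicate 2 (adjusted p = 0.0859) or DSS replicate 2 of that group (adjusted p = 0.0829). With neither SIgA 1 of 10 was called, where 1.12% of all genes were (0.492% higher): Tnfaip2 rose by 1.26 ± 0.25 (adjusted p = 0.0256). That call was lost without untreated replicate 2 (0.96), DSS replicate 1 (1.42) or DSS replicate 2 (1.09) of the group.

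With passive SIgA only (1.98% of all genes called, 0.893% higher) and with active SIgA only (0.998% called, 0.622% higher) none of the 10 passed by limma. There 3 and 4 members had an unadjusted p under 0.05, as 11.4% and 12.8% of all genes did. Tnfaip2 came closest, at 0.94 ± 0.25 (adjusted p = 0.0769) and 1.07 ± 0.25 (adjusted p = 0.0635). With the replicate number as a block both passed (adjusted p = 0.0331 and 0.0261). Nfkbiz stood at 0.26, 0.30 and 0.30 (each ± 0.13) with passive SIgA only, active SIgA only and neither. Bcl3 lay between 0.23 and 0.32 and Traf1 between -0.43 and -0.25 over the 4 groups.

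Whether the DSS effect itself differed with SIgA was tested by interaction terms, and no member passed one. For passive SIgA by DSS (0.115% of all genes called) the members' terms ran from -0.16 to 0.10, and for active SIgA by DSS (0.843% called) from -0.18 to 0.09, with standard errors of 0.12 to 0.25. For the three-way term (0.0602% called) they ran from -0.24 to 0.73, the highest being Tnfaip2 at 0.73 ± 0.49 (adjusted p = 0.883). In all 3 terms no member had an unadjusted p under 0.05, where 8.14%, 12% and 6.79% of all genes did, in this order.

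Lack of passive SIgA in untreated mice (4 arrays without against 4 with) asked whether early milk antibody left a mark on these genes in adult colon. None of the 10 members passed by limma (2.58% of all genes were called), and 3 had an unadjusted p under 0.05, as 19.9% of all genes did. These 3 were Nfkb2, Relb and Tnip1, each higher without passive SIgA. Nfkb2 stood at 9.64 and 9.73 with passive and active SIgA, 9.70 and 9.44 with passive only, 9.80 and 10.09 with active only, and 10.09 and 9.80 with neither. All 4 arrays without passive SIgA were above all 4 with it, as in Tnip1, and Relb overlapped. Such a complete separation upwards was found in 2 of 10 members and in 4.09% of all genes. The differences were 0.32 ± 0.11 for Nfkb2 (adjusted p = 0.137), 0.22 ± 0.09 for Relb (adjusted p = 0.179) and 0.24 ± 0.09 for Tnip1 (adjusted p = 0.176). Without the untreated passive and active group, that is in Pigr-/- offspring alone, they were 0.37 ± 0.16, 0.30 ± 0.13 and 0.23 ± 0.14 (adjusted p = 0.688, 0.655 and 0.842).

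After DSS the same genes stood at 0.16 ± 0.11, 0.17 ± 0.09 and 0.13 ± 0.09 without minus with passive SIgA. No gene of the 19938 was called there (0% called; 3.95% had an unadjusted p under 0.05, and none of the members did). Relb had 8.61 and 8.61 with passive and active SIgA, 8.66 and 8.62 with passive only, 8.71 and 8.92 with active only, and 8.81 and 8.72 with neither. The 4 arrays without passive SIgA were above the 4 with it, which 1.12% of all genes showed in this direction.

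**Figure D4:**
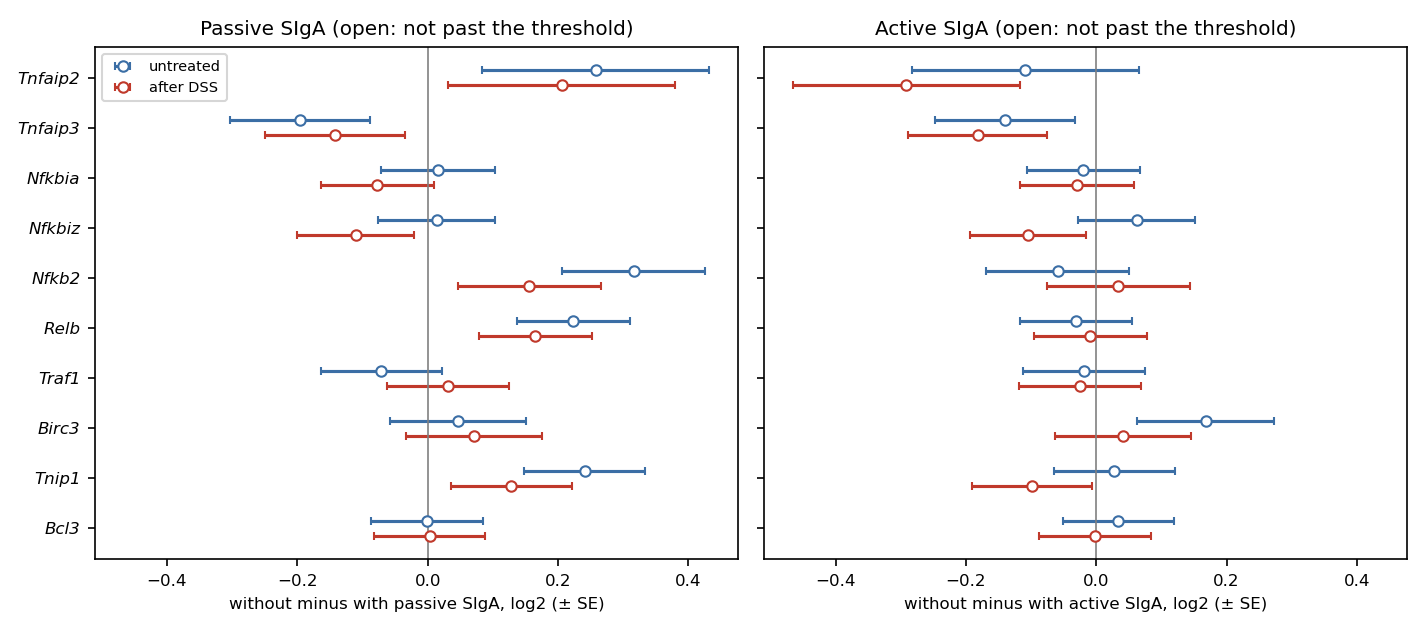
Difference without minus with passive SIgA (left) and active SIgA (right) for each member in log2 units, with bars of 1 standard error, in untreated mice (blue) and after DSS (red), each from 4 arrays against 4; all points are open because none passed an adjusted p under 0.05. Untreated Nfkb2, Tnip1 and Relb lie at 0.32, 0.24 and 0.22 for passive SIgA.

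Loss of active SIgA transport, in Pigr-/- against Pigr+/- offspring, gave no call among the members by limma, in untreated mice (-0.14 to 0.17, 7.49% of all genes called) or after DSS (-0.29 to 0.04, 0.00502% called). No member had an unadjusted p under 0.05 in either, where 28% of all genes did in untreated mice and 1.66% after DSS. Birc3 was highest in untreated mice, at 0.17 ± 0.10 (adjusted p = 0.298), and passed when untreated replicate 2 of active SIgA only was left out (0.29 ± 0.09, adjusted p = 0.0369). In that fit 23.7% of all genes were called. Without the untreated passive and active group Birc3 stood at -0.00, and no gene was called by limma, with 2176 at an unadjusted p under 0.05. After DSS Tnfaip2 was lowest, at -0.29 ± 0.17 (adjusted p = 1), and Tnfaip3 stood at -0.18 ± 0.11. The 1 gene called after DSS was Pigr, the deleted gene by which these offspring were grouped. Its place on the list of NF-kB targets gives that call no meaning for the pathway. Of the other pathway genes in untreated mice, Irf1 (0.86 ± 0.12), an interferon response factor, and Tnfaip8 (0.40 ± 0.09) were higher without passive SIgA. The chemokine Ccl5 was lower there (-0.48 ± 0.10). Without active SIgA, Otulin (0.32 ± 0.09) and Ccl5 (0.40 ± 0.10) were higher, and the deleted gene Pigr was lower. Of these, chosen for mention after their values were seen, only Pigr was also called after DSS. None was called in untreated mice without the untreated passive and active group. That fit set 2 arrays against 2 and missed even the deleted gene Pigr, so it cannot decide whether the other genes differed.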

How the data were processed

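The deposited values are log2 intensities of an Affymetrix whole-transcript array, made by the authors with RMA (background correction, quantile normalization, probe set summary) per the submitters' processing notes, with no version given in the sources used here. Of 35557 probe sets 21789 name 1 gene, 1621 several and 12147 none in the platform's annotation, and the first kind was used. The probe set with the highest mean stood for a gene, which left 19938 genes. Group means of all 8 groups were estimated in a single model with limma 3.58.1 in R 4.3.3 (8 residual and 5.03 prior degrees of freedom), and p-values, all two-sided, were adjusted over all genes by Benjamini-Hochberg, with a call at an adjusted p under 0.05. The fit was tested on simulated data. The labels give replicates as separate pools of 3 mice and name no batch, and their number limits the precision. So p-values reflect variation between pools.

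The members and the lists of pathway genes, markers and motifs were chosen with earlier results of these data known. All 10 members are described. Of each pathway list up to 4 genes with the smallest p in the average DSS comparison were named, Pigr throughout, and for each member called in that comparison the 2 genes with the most similar profile, predicted, numbered-clone, microRNA and chemosensory receptor symbols left aside. Other genes, beside small counts, were picked with their values in view. The alternatives were all probe sets, a trend in the prior variance, median centring, a second quantile normalization, removal of the dimmest 30% of genes, a fit of only the arrays compared, a replicate block, leaving out each array, and leaving out the arrays that stood apart. Groups of 2 arrays are too small for a test of single outlying arrays. Protein sequences were not used here.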

Additional observations from a re-analysis of the deposited data

How the results depend on the processing

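Tnfaip2 and Traf1 kept direction and call for the average DSS effect under all 25 alternatives run (1.09 to 1.29, and -0.38 to -0.30). Nfkbiz and Bcl3 did so under 24, and lost the call only without the untreated passive and active group and untreated replicate 1 of active SIgA only. There 1 member rose and 1 fell. Without that group alone 1 fell. Leaving out single arrays gave 3 to 4 members higher and 1 to 2 lower. The difference of Nfkb2 turned negative with arrays centred on their median (-0.017), quantile normalization (-0.020) and the 3 arrays left out (-0.039), and lay between -0.037 and 0.049 when single arrays were left out, and that of Birc3 turned to -0.028 without the 3 arrays. None of these passed the test, and the cause was not tested.

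Within SIgA groups, leaving out single arrays gave 1 to 2 members higher with passive and active SIgA and 0 to 1 with passive only, active only and neither. With passive and active SIgA a fit of only the arrays compared gave 1 higher, and median centring gave 1 lower (Traf1). With passive SIgA only, 1 rose with the replicate block and with only the arrays compared. With active SIgA only, 1 rose with the trend, median centring, quantile normalization, without the dimmest genes and with the replicate block. In these fits of the single groups with passive only or active only it was Tnfaip2. For active SIgA in untreated mice single arrays left out gave 0 to 1 higher (Birc3). The counts of members in this section stand without the share of all genes called in the same fits. They therefore do not separate a change in the members from a change in calls among all genes.

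The labels link same-numbered arrays by nothing but the number. Over 28 pairs of groups the correlation of replicate differences over genes ran from -0.30 to 0.67, with 14 above 0.1. Whether such arrays have more in common cannot be told from the labels. With the replicate block 3032 of all genes changed with DSS against 2618 without it, and 5 members in both fits. Without the untreated passive and active group 1210 did, and median centring changed the split from 1276 higher and 1342 lower to 874 and 1637. The three-way term, and DSS with passive and active SIgA, could not be fitted without that group. Which calls 2 arrays a group can make is limited: a DSS effect within a group had a median standard error of 0.15 over all genes.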
